A study of Rattus norvegicus with 15 samples.

Results

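The genes described here serve dopamine, adrenergic and melatonin signalling in the rat retina. They were taken by name, as Th, Ddc, Drd1, Drd2, Drd4, Adra1b, Aanat, Asmt, Mtnr1a and Adcy1, and every probe set whose array annotation gave exactly one of these symbols was used. Of the 10 genes, 8 had such a probe set, with 12 probe sets in all among the 31099 of the array. These were 1 for each of Th, Drd2, Adra1b, Aanat and Asmt, 2 for each of Ddc and Drd1, and 3 for Drd4. Mtnr1a, a melatonin receptor, and Adcy1, a calmodulin-stimulated adenylyl cyclase, were not analysed here.

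Dopamine is made in the retina by a class of amacrine cells, from tyrosine by tyrosine hydroxylase (Th) and then aromatic amino acid decarboxylase (Ddc), and its release is known to be raised by light. Melatonin is made at night in photoreceptors from serotonin by arylalkylamine N-acetyltransferase (Aanat) and then acetylserotonin O-methyltransferase (Asmt). Receptors of the D1 class stimulate adenylyl cyclase and those of the D2 class, Drd2 and Drd4, inhibit it, so that both amines meet in the control of cyclic AMP. Adra1b encodes the alpha-1B adrenergic receptor, which acts through calcium and phospholipase C.

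Retinas came from adult male Long-Evans rats, a pigmented strain, all of which had spent the night in darkness. RNA was measured on 15 arrays, with 3 replicas in each of 5 conditions. The 0 ZT dark animals were taken at 7 am, after the night in darkness. The 3 ZT dark animals stayed in darkness until 10 am, and the 3 ZT light animals had 3 h of light at 1000 lux up to that hour. The 6 ZT dark animals stayed in darkness until 1 pm. For the 6 ZT light animals the sample titles give 6 h of the same light, whereas other labels of these samples give 3 h, and the titles were followed. Nothing given describes how many animals or retinas made up 1 array, so the p-values measure the spread between replicas, which may in part be technical.

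Expression values are the deposited log2 levels, in which a difference of 1 is a doubling. Levels of different probe sets are not comparable with each other. Tests came from limma, which fitted a linear model to each of 31042 probe sets, controls left out, with terms for condition and for replica number. A p adjusted over all of them (Benjamini-Hochberg) under 0.05 was required for a call. The median level of an array depended on its replica number (8.28 to 8.32 for number 1, 8.58 to 8.68 for 2, 8.75 to 8.81 for 3), so values are given in the order of these numbers. For actin (Actb) the difference between the 3′ and the 5′ probe set, a sign of RNA length, reached 2.10 for replica 1 of 0 ZT dark and 2.40 for replica 2 of 3 ZT light, and lay between 0.708 and 1.37 in the other 13 arrays. Across the whole array 1 probe set, annotated to LOC102553043, passed the adjusted threshold for light against darkness at 3 ZT, with a log2 fold change of -1.21 ± 0.12 (SE) and an adjusted p of 0.0277. It was looked up only after its values were seen.

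None of the 12 probe sets passed the adjusted threshold of the limma test in any comparison. For light against darkness at 3 ZT the share of all probe sets that passed was 0.00322%, and at 6 ZT it was 0%. The genes were chosen with earlier results of these data known, so counts among them are a description and not a test against the array. With an unadjusted p under 0.05 at 3 ZT, 7 of the 12 probe sets were lower in light, against 4.59% of all probe sets in either direction. They belonged to the 5 genes Drd2, Drd4, Adra1b, Aanat and Asmt. At 6 ZT the same level was reached by 2 of 12, 1 each of Drd4 and Adra1b, against 8.53% of all. The median log2 fold change of the 12 was -0.48 at 3 ZT, with 10 of them lower in light, whereas over all probe sets tested it was 0.00, with 49.7% lower. At 6 ZT the median was -0.09 with 8 lower, and -0.01 over all tested with 51.9% lower. The 3 probe sets of Drd4 measure 1 gene and are not independent of each other. Without replica 2 of 3 ZT light, 3 of the 12 kept an unadjusted p under 0.05 at 3 ZT, those of Adra1b, Asmt and the brightest of Drd4, and a fit with no replicate block gave 3 at 3 ZT and 0 at 6 ZT. These are levels in whole retina, where fewer cells of a type cannot be told apart from less RNA per cell.

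Agreement between replicas can be read without a model. In light at 3 ZT, 7 of the 12 probe sets were lower than in darkness in all 3 replicas, against 9.43% of all probe sets. These were the same 7 that had an unadjusted p under 0.05. At 6 ZT it was 5 of 12, namely the 3 of Drd4 and those of Adra1b and Drd2, against 13.5% of all.

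**Figure D1:**
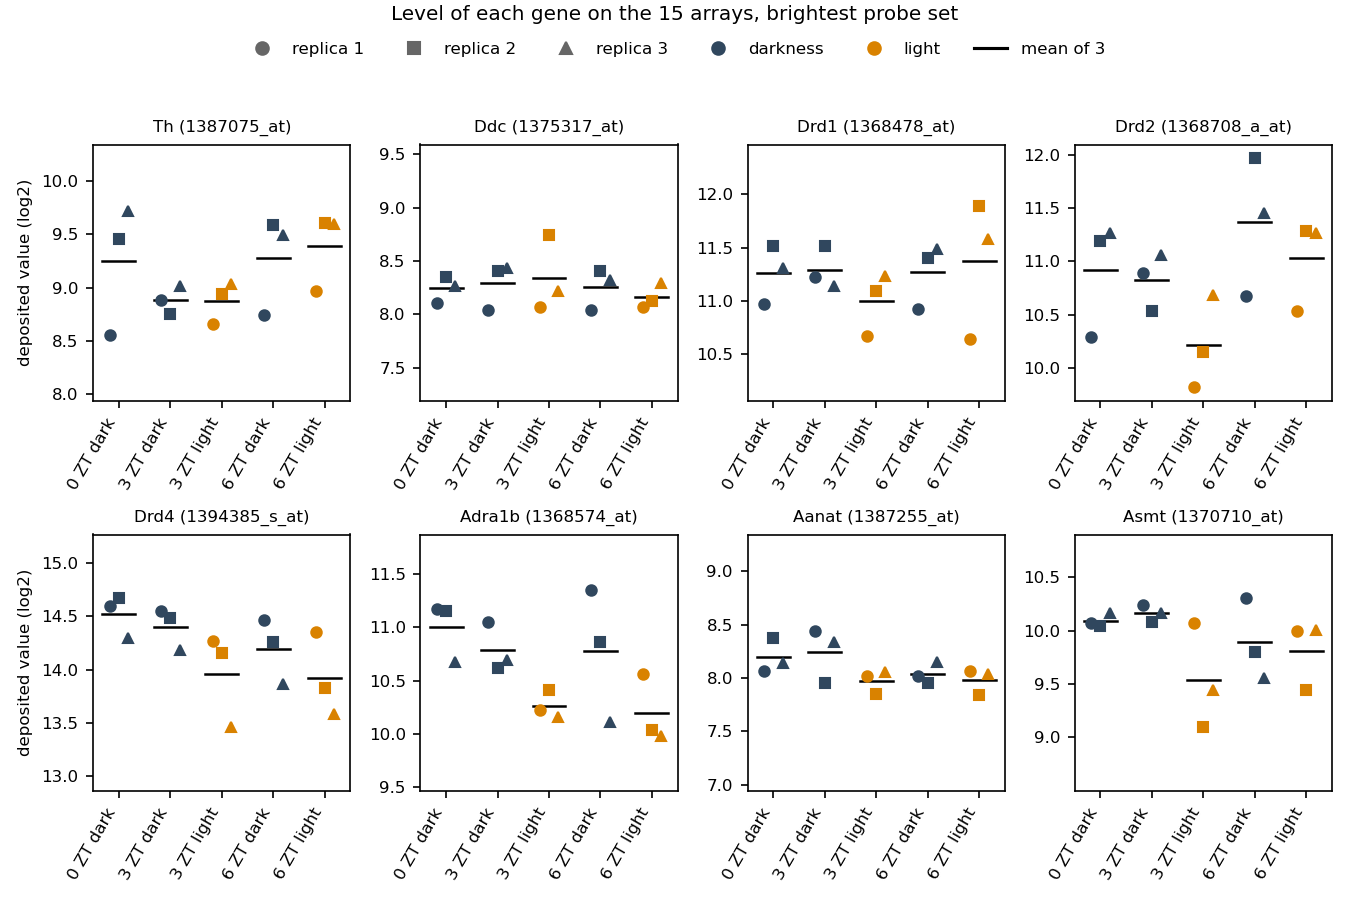
Deposited log2 level of the 8 genes on each of the 15 arrays, each gene by its brightest probe set. Symbols are replica numbers, colours are darkness and light, black bars are means of 3, and all panels span the same number of log2 units. The light means of Drd4 (13.96 and 13.92) and Adra1b (10.27 and 10.20) lie below all their dark means, and those of Th and Ddc do not.

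The promoters of 4 genes are shown because their mean level was lowest in the 2 light conditions, below all 3 dark ones. These were Drd4, Adra1b, Aanat and Asmt. For Aanat and Asmt the 6 ZT light mean was below that of 6 ZT dark by only 0.06 and 0.08, less than their residual SDs of 0.16 and 0.25. Sequences are from RefSeq on the GRCr8 build and run from 250 bases before the annotated start of the gene to 50 after it, on the strand of the gene. The windows lie at chr1:205825687-205825986 on the plus strand for Drd4 and at chr10:28814298-28814597 on the minus strand for Adra1b. Those of Aanat and Asmt lie at chr10:102326073-102326372 on the plus strand and at chr12:21423287-21423586 on the minus strand. Capitals mark a match to one of the motifs searched.
Drd4: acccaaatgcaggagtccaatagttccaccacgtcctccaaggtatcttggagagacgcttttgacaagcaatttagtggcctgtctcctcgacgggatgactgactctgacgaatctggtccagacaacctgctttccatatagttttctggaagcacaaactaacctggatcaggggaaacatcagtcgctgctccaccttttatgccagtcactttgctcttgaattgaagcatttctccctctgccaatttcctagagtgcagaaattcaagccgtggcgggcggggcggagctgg
Adra1b: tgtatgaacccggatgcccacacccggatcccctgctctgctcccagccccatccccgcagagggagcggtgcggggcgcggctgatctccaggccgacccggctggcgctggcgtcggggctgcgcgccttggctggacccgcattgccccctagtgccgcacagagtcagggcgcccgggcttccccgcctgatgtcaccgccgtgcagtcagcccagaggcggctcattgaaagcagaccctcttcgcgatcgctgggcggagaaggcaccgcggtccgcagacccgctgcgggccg
Aanat: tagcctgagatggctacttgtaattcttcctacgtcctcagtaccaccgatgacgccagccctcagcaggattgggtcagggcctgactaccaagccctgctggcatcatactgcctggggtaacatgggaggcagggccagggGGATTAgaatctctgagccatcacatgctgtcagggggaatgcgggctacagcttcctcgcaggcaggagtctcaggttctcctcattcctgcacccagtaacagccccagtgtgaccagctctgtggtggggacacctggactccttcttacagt
Asmt: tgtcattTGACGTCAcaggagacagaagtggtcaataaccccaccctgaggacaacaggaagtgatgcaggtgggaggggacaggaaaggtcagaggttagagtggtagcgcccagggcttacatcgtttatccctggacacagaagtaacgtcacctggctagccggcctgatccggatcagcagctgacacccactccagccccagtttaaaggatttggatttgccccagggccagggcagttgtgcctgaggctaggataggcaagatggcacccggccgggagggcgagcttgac

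On both strands 3 motifs were searched, namely the cyclic AMP response element TGACGTCA, the E-box CACGTG bound by clock proteins, and GGATTA, the core bound by the photoreceptor factor CRX, whose other strand reads TAATCC. Windows were also given for Th, Ddc, Drd1, Drd2, Mtnr1a and Adcy1, and since Ddc has 3 there were 12 windows in all. The cyclic AMP response element was found in Asmt, starting 243 bases before the start, and in Th, starting 69 bases before it. Of all 33469 promoter windows, 1.83% held it. GGATTA was found in Aanat, 106 bases before the start, and on the other strand in Mtnr1a, 205 bases before it, against 7.17% of all windows. None of the 12 held the E-box, which 6.42% of all did. The windows of Drd4 and Adra1b held none of these letters, and such a match describes the sequence only.

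Drd4, a dopamine receptor that rodent photoreceptors express, was lower in light at both hours in every replica and with each of its probe sets. The brightest, 1394385_s_at, read 14.55, 14.48 and 14.18 in 3 ZT dark and 14.27, 14.16 and 13.46 in 3 ZT light, for replicas 1 to 3. Each light array was below the dark array of its number, although the raw values of the groups overlapped. By limma the log2 fold change was -0.44 ± 0.12 (SE), with an unadjusted p of 0.0035 and an adjusted p of 0.895. In 6 ZT dark it read 14.47, 14.26 and 13.86 and in 6 ZT light 14.36, 13.83 and 13.59. The light arrays were again below their dark partners, with a log2 fold change of -0.27 ± 0.12, an unadjusted p of 0.0423 and an adjusted p of 0.573, or -0.16 without replica 2 of 6 ZT light.

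The dimmer Drd4 probe sets gave larger differences and a wider spread. For 1387520_at the values were 12.55, 12.47 and 12.21 in 3 ZT dark and 11.82, 10.32 and 11.34 in 3 ZT light, and the groups did not overlap. This was a log2 fold change of -1.25 ± 0.41 (unadjusted p = 0.0116). For 1394384_at they were 13.08, 12.71 and 12.27 against 12.52, 10.96 and 11.57, with a log2 fold change of -1.002 ± 0.32 (unadjusted p = 0.0093). The lowest value of both probe sets was that of 3 ZT light replica 2, one of the 2 arrays with a large actin difference. Without the 2 such arrays the fold changes at 3 ZT were -0.90 and -0.67, and -0.53 for the brightest probe set, with unadjusted p of 0.0063, 0.0109 and 0.0011. At 6 ZT the dimmer probe sets were lower in light by -0.65 ± 0.41 and -0.52 ± 0.32, with unadjusted p of 0.142 and 0.127, and all groups overlapped.

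**Figure D2:**
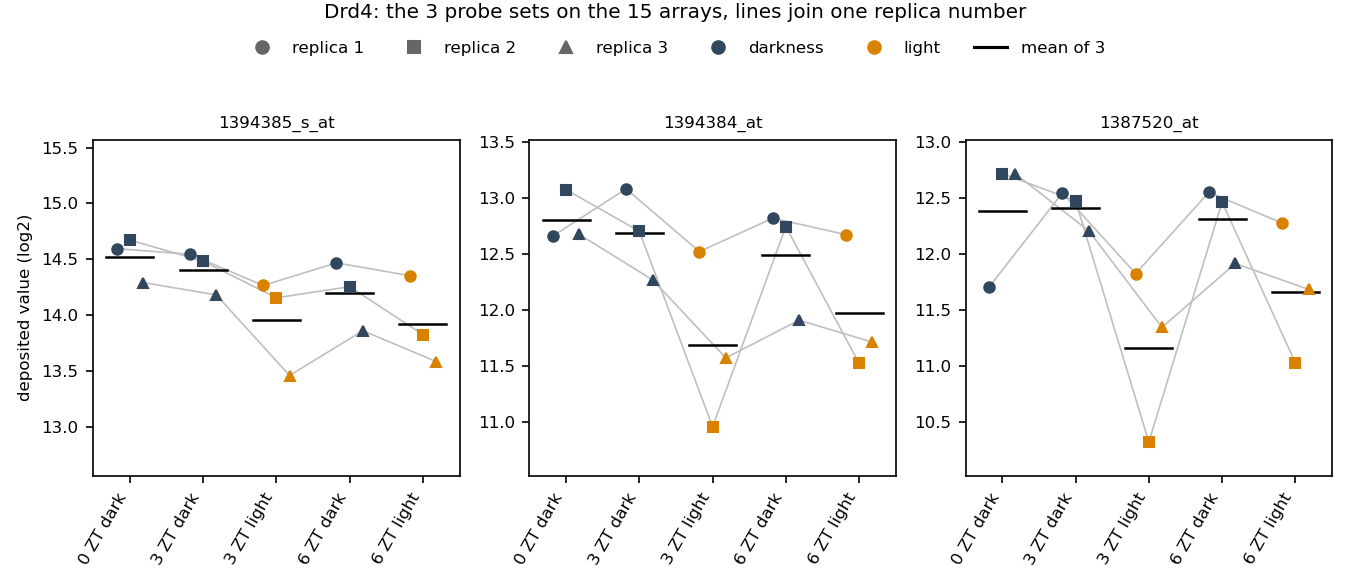
Deposited log2 level of Drd4 by its 3 probe sets, 1 panel each, on the 15 arrays, where grey lines join the arrays of 1 replica number and black bars are means of 3. Light points lie under the dark points of their replica at both hours, and replica 2 lies lowest at 3 ZT in the dimmer probe sets, to 10.96 and 10.32.

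Against the morning control, the brightest Drd4 probe set gave the smallest p-values of all the probe sets described in both light conditions. The 0 ZT dark arrays read 14.60, 14.67 and 14.29 with 1394385_s_at, above 3 ZT light in every replica and without overlap. The log2 fold change was -0.56 ± 0.12 for 3 ZT light (unadjusted p = 0.0007, adjusted p = 0.328) and -0.60 ± 0.12 for 6 ZT light (unadjusted p = 0.00042, adjusted p = 0.298). These rank 66th and 41st among all probe sets tested. The 6 ZT dark arrays were below 0 ZT dark too, by -0.32 ± 0.12 (unadjusted p = 0.0196, adjusted p = 0.531), whereas 3 ZT dark gave -0.12 ± 0.12 (unadjusted p = 0.346). With 1394385_s_at, then, the dark retinas of 1 pm were also below those of 7 am. Ordered by mean, this probe set was highest in 0 ZT dark (14.52), followed by 3 ZT dark (14.40), 6 ZT dark (14.20), 3 ZT light (13.96) and 6 ZT light (13.92). The first 2 and the last 2 neighbours differed by less than the residual SD of 0.15. The dimmer 1394384_at and 1387520_at gave weaker results against 0 ZT dark. By limma their unadjusted p was 0.0049 and 0.0131 for 3 ZT light, and 0.0236 and 0.108 for 6 ZT light. In replica 1, 1387520_at was above 0 ZT dark by 0.12 in 3 ZT light and by 0.57 in 6 ZT light. For 6 ZT dark they stood at -0.31 ± 0.32 and -0.07 ± 0.41 (unadjusted p = 0.344 and 0.868).

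Adra1b showed a light difference of similar size at both hours. Its values were 11.05, 10.62 and 10.70 in 3 ZT dark and 10.23, 10.41 and 10.16 in 3 ZT light. All 3 light arrays lay below all 3 dark arrays. This gave a log2 fold change of -0.52 ± 0.19 (SE, unadjusted p = 0.0202, adjusted p = 0.895), or -0.33 without replica 1 of 3 ZT light. This was a mean ratio of 0.707 ± 0.15 (SD, n = 3). At 6 ZT the values were 11.35, 10.86 and 10.11 in darkness and 10.57, 10.04 and 9.99 in light. Every replica was lower in light, but 6 ZT dark replica 3 lay among the light values, and the log2 fold change was -0.58 ± 0.19 (unadjusted p = 0.0120, adjusted p = 0.519).

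The 0 ZT dark values of Adra1b were 11.18, 11.16 and 10.68, and no array of either light condition reached the lowest of them. Ratios to the 0 ZT dark array of the same replica were 0.518, 0.596 and 0.6998 for 3 ZT light and 0.656, 0.462 and 0.620 for 6 ZT light. A ratio below 0.7 in all 3 replicas is the rule by which the study called down-regulation, and Adra1b met it at both hours as the only 1 of the 12 probe sets. Of all probe sets 0.0741% met it with 3 h of light and 0.0709% with the longer exposure. The study named Adra1b as down-regulated from these same arrays, so this is not independent evidence of its direction. At 3 ZT replica 3 lay just under the limit of 0.7, and after quantile normalization of the 15 arrays Adra1b no longer met the rule there. By limma the log2 fold changes from 0 ZT dark were -0.74 ± 0.19 and -0.80 ± 0.19 (unadjusted p = 0.0029 and 0.0016, adjusted p = 0.456 and 0.381). The dark conditions were lower by -0.22 ± 0.19 and -0.23 ± 0.19, with unadjusted p of 0.284 and 0.260.

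**Figure D3:**
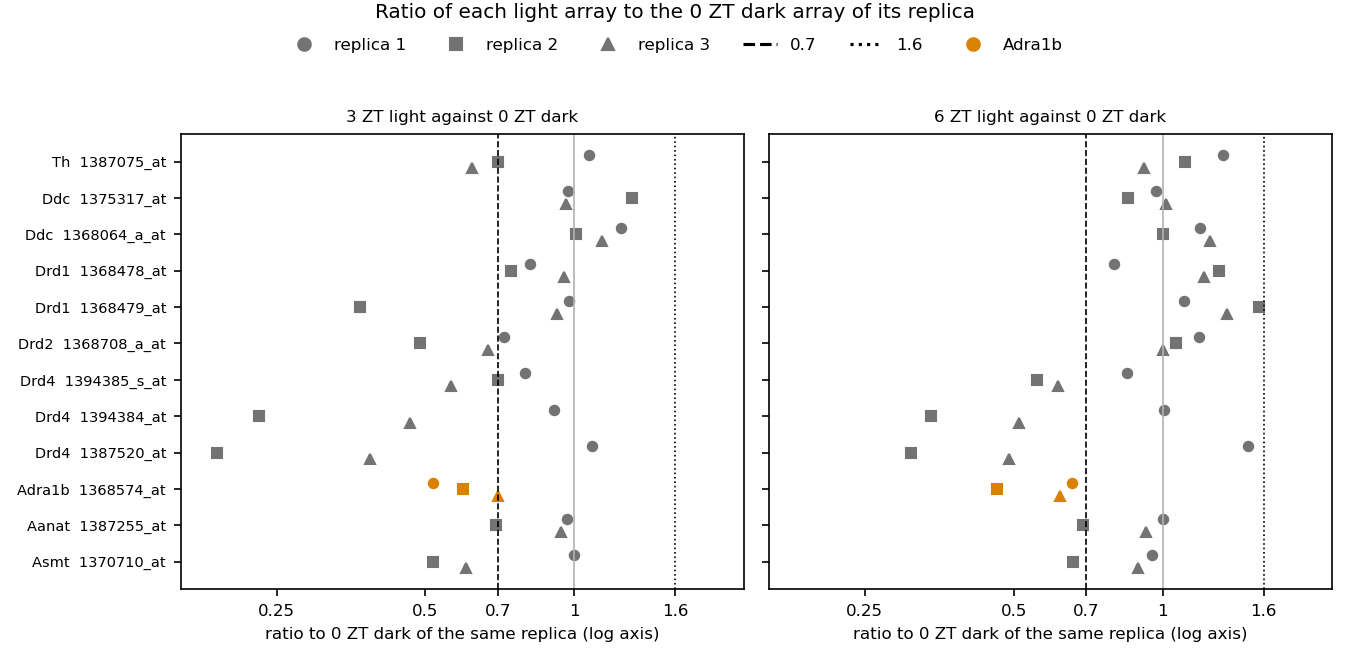
Ratio of each light array to the 0 ZT dark array of its own replica for the 12 probe sets, on a log axis, with the limits of 0.7 (dashed) and 1.6 (dotted) and Adra1b in orange. Adra1b alone has all 3 points under 0.7 in both panels, the highest at 0.6998 in 3 ZT light.

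Drd2, found on dopaminergic cells themselves as an autoreceptor as well as on their targets, had the widest spread of condition means of the 8 genes when each was taken by its brightest probe set, 1.15 log2 units. It read 10.89, 10.53 and 11.06 in 3 ZT dark and 9.82, 10.15 and 10.68 in 3 ZT light. Each replica was lower in light and the groups overlapped. Light differed from darkness by -0.61 ± 0.25 (SE, unadjusted p = 0.0320, adjusted p = 0.895), and without the 2 arrays with a large actin difference it was -0.48 (unadjusted p = 0.125). It was -0.30 without replica 1 of 3 ZT dark and -0.89 without replica 2 of 3 ZT dark. In 6 ZT retinas it read 10.67, 11.97 and 11.45 in darkness and 10.54, 11.28 and 11.27 in light, with a log2 fold change of -0.34 ± 0.25 (unadjusted p = 0.198), or -0.056 without replica 2 of 6 ZT dark. From 0 ZT dark, at 10.29, 11.19 and 11.27, the 3 ZT light arrays differed by -0.70 ± 0.25 (unadjusted p = 0.0167). The 6 ZT dark arrays were above 0 ZT dark in all 3 replicas, with a log2 fold change of 0.45 ± 0.25 (unadjusted p = 0.0956), so the level in light at 6 ZT stood 0.11 ± 0.25 from that of 0 ZT dark.

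Drd1, the receptor of the D1 class, gave no unadjusted p under 0.05 with either probe set. The brighter one, 1368478_at, read 11.23, 11.52 and 11.14 in 3 ZT dark and 10.67, 11.09 and 11.24 in 3 ZT light. It was lower in light in 2 of 3 replicas, with a log2 fold change of -0.29 and a 95% interval from -0.69 to 0.10, or -0.11 without replica 1 of 3 ZT dark. The 6 ZT values were 10.93, 11.41 and 11.49 in darkness and 10.64, 11.89 and 11.59 in light, a log2 fold change of 0.10 with an interval from -0.29 to 0.49. The other probe set, 1368479_at, was at 7.72 in 3 ZT light replica 2, its lowest value of the 15, and between 8.30 and 9.94 elsewhere. Its fold change at 3 ZT of -0.62 ± 0.32 became -0.16 without the 2 arrays with a large actin difference.

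Th, the rate-limiting enzyme of dopamine synthesis, had its lowest means at 3 ZT, in darkness and in light alike, and no difference passed a test. It read 8.56, 9.46 and 9.72 in 0 ZT dark. At 3 ZT it was 8.89, 8.75 and 9.02 in darkness and 8.66, 8.94 and 9.04 in light, means of 8.88 in both. The log2 fold change between light and darkness was -0.00 ± 0.18 (SE), with a 95% interval from -0.41 to 0.40. At 6 ZT it was 8.75, 9.59 and 9.50 in darkness and 8.97, 9.61 and 9.60 in light, higher in light in all 3 replicas by 0.11 ± 0.18 (unadjusted p = 0.553). The 3 ZT dark and 3 ZT light arrays differed from 0 ZT dark by -0.36 ± 0.18 and -0.37 ± 0.18 (unadjusted p = 0.0737 and 0.0707). In both cases replicas 2 and 3 were lower and replica 1 was higher, and the 0 ZT dark array of replica 1, at 8.56, is the other array with a large actin difference. Without the 2 such arrays the difference of 3 ZT light from 0 ZT dark was -0.54, with an unadjusted p of 0.0302 and an adjusted p of 0.758, and that of 3 ZT dark was -0.56, with an unadjusted p of 0.0146. Across all 5 conditions the test for any difference gave Th an unadjusted p of 0.0511.

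Ddc, which completes dopamine synthesis and also makes serotonin, varied least. Condition means of its brighter probe set, 1375317_at, spanned 0.18 log2 units, from 8.16 in 6 ZT light to 8.34 in 3 ZT light, and no step between neighbouring means exceeded the residual SD of 0.15. Light against darkness gave 0.05 ± 0.12 at 3 ZT and -0.10 ± 0.12 at 6 ZT, with 95% intervals from -0.21 to 0.30 and from -0.36 to 0.16. The other probe set, 1368064_a_at, was higher than 0 ZT dark in both light conditions, by 0.17 ± 0.08 and 0.19 ± 0.08 (unadjusted p = 0.0463 and 0.0293). Its lowest 0 ZT dark value, 6.91, was that of replica 1, and without both arrays with a large actin difference it stood at 0.14 and 0.15 (unadjusted p = 0.177 and 0.115). In replica 2 this probe set held the value 7.81 to all deposited digits in 4 of 5 conditions, the 3 ZT light array being at 7.82. Of the 360 comparisons of a probe set of these genes between 2 arrays of the same replica number, 15 gave exactly equal values, over 5 probe sets, and none of 900 between different numbers did.

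Asmt, the last enzyme of melatonin synthesis, stood lower in light at 3 ZT, and at 6 ZT light and dark means were close. It read 10.24, 10.08 and 10.17 in 3 ZT dark and 10.07, 9.10 and 9.44 in 3 ZT light, without overlap. Light differed from darkness by -0.63 ± 0.19 (SE, unadjusted p = 0.0066, adjusted p = 0.895), and -0.50 (unadjusted p = 0.0241) without the 2 arrays with a large actin difference, of which 3 ZT light replica 2 held the lowest Asmt value of all 15 arrays. Later, at 6 ZT, it read 10.31, 9.80 and 9.56 in darkness and 10.00, 9.44 and 10.00 in light, overlapping, with a log2 fold change of -0.08 ± 0.19 (unadjusted p = 0.691). The difference between the light effects of the 2 hours was 0.55 ± 0.26, with an unadjusted p of 0.0609. In 0 ZT dark the values were 10.07, 10.04 and 10.17, all above those of 6 ZT light, and 3 ZT light differed from them by -0.56 ± 0.19 (unadjusted p = 0.0128).

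Aanat, the enzyme whose activity sets the melatonin rhythm, differed little. In 3 ZT dark it read 8.45, 7.96 and 8.34 and in 3 ZT light 8.02, 7.85 and 8.06. Every replica was lower in light and the groups overlapped, with a log2 fold change of -0.27 ± 0.12 (SE, unadjusted p = 0.0490, adjusted p = 0.895). Without the 2 arrays with a large actin difference it was -0.26, with an unadjusted p of 0.0811, and without replica 1 of 3 ZT dark it was -0.17. At 6 ZT the values were 8.02, 7.96 and 8.15 in darkness and 8.06, 7.85 and 8.03 in light, and the log2 fold change was -0.06 ± 0.12 (unadjusted p = 0.627). In 0 ZT dark, the end of the night, Aanat read 8.06, 8.38 and 8.14. No step between neighbouring condition means exceeded its residual SD of 0.16. Its values lay between 7.85 and 8.45, below the median of the array except in replica 1 of 3 ZT dark. In 3 of 30 pairs of arrays with the same replica number they were exactly equal. A small difference with this probe set may therefore reflect its low signal, which was not tested.

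**Figure D4:**
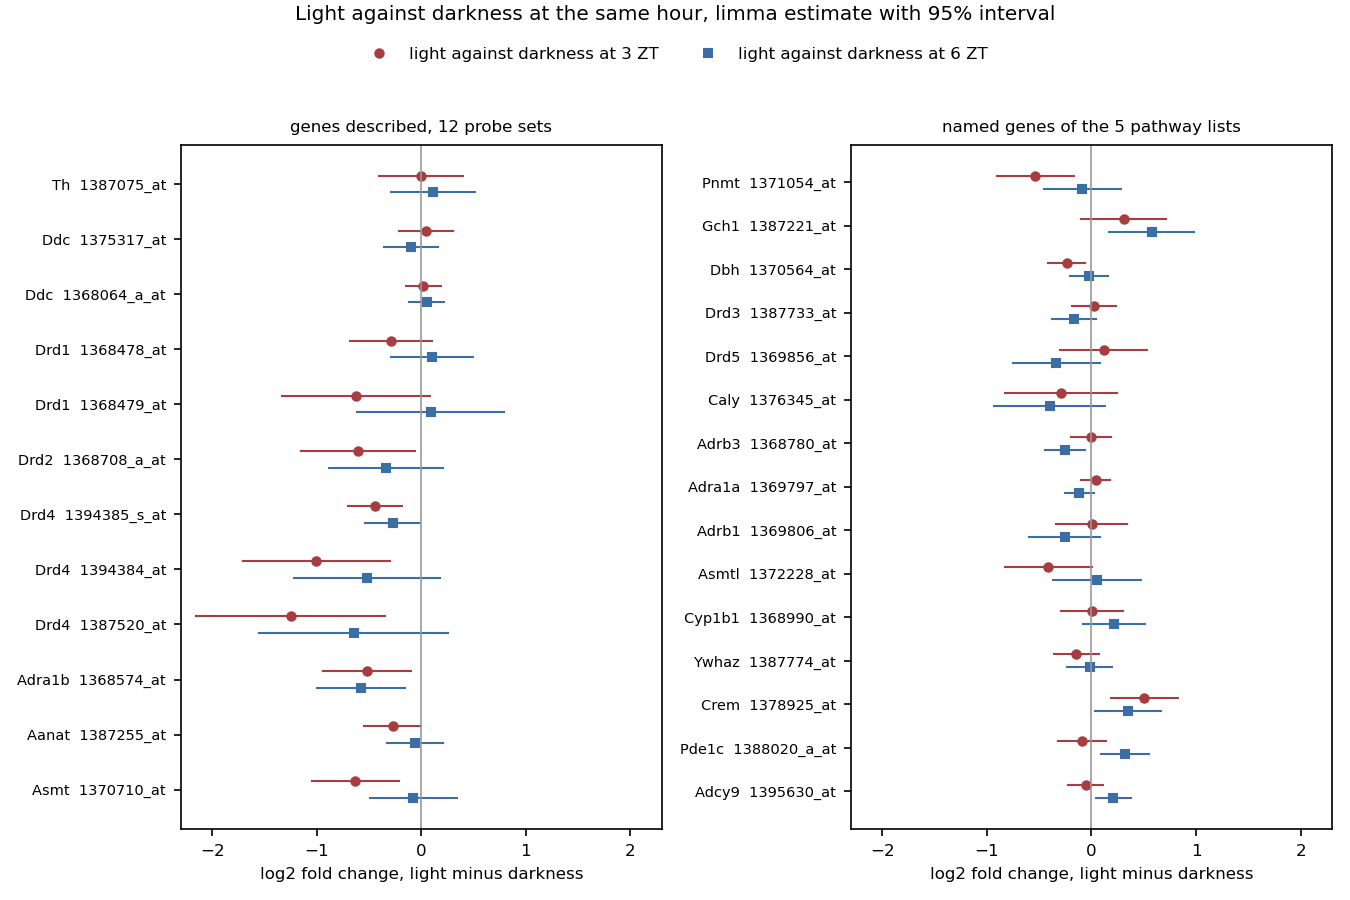
Log2 fold change of light against darkness at 3 ZT (red circles) and 6 ZT (blue squares), with 95% intervals from limma, for the 12 probe sets (left) and for the named genes of the pathway lists (right). In the left panel the 3 ZT intervals of Drd2, Drd4, Adra1b, Aanat and Asmt lie below 0, and at 6 ZT only those of Adra1b and the brightest Drd4 probe set do.

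Set against 0 ZT dark, the 12 probe sets gave no adjusted p under 0.05 in any of the 4 later conditions. All 4 of these comparisons share the 0 ZT dark arrays, and those of light against darkness share the light arrays with them. For 3 ZT light 7 of 12 had an unadjusted p under 0.05, the 3 of Drd4 and the probe sets of Adra1b, Drd2 and Asmt lower and 1 of Ddc higher, against 7.68% of all probe sets, of which 0.00322% passed after adjustment. Without replica 2 of 3 ZT light it was 3 of 12, without replica 3 of 0 ZT dark 3 and without replica 2 of 0 ZT dark 4. For 6 ZT light it was 4 of 12, lower for 2 of Drd4 and for Adra1b and higher for 1 of Ddc, against 6.18%, with 0% after adjustment. Without replica 3 of 0 ZT dark it was 2 of 12. For 3 ZT dark it was 0 of 12 against 1.25%, and for 6 ZT dark 1 of 12, of Drd4, against 8.73%, with 0% after adjustment in both. The test for any difference between the 5 conditions gave 6 of 12 an unadjusted p under 0.05, against 6.8% of all and 0% after adjustment. This became 3 without replica 2 of 3 ZT light and 2 with no replicate block. For the difference between the light effects at 6 ZT and at 3 ZT it was 0 of 12 at an unadjusted p, against 5.95% of all, and 0% after adjustment. Thus no light effect was shown to differ between the 2 hours. The difference was 0.17 with a 95% interval from -0.20 to 0.54 for the brightest Drd4 probe set and -0.06 with one from -0.65 to 0.54 for Adra1b.

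Markers of other cell types differed in the same comparisons. At 3 ZT the 4 measured bipolar cell markers of 6 were all lower in light, with a median of -0.66, and at 6 ZT 3 of 4 were higher with a median of 0.15. Their summed linear level was 13137 to 16068 in 3 ZT light and 21625 to 26333 in 3 ZT dark. Of the 6 measured photoreceptor markers, 5 were lower in light at 3 ZT with a median of -0.10, and all 6 were higher at 6 ZT with a median of 0.09. The summed photoreceptor level ran from 134313 to 156787 in 3 ZT light and from 142136 to 159096 in 3 ZT dark, overlapping. The 7 amacrine cell markers had a median of 0.05 at 3 ZT, where 5 were higher in light, and of -0.18 at 6 ZT, where all 7 were lower. The 5 measured ganglion cell markers were all lower in light at 6 ZT, with a median of -0.46, and 3 of them at 3 ZT, with a median of -0.06. Of 6 Muller glia markers 5 were lower in light at 3 ZT and 1 at 6 ZT, with medians of -0.17 and 0.06. Of 7 measured blood and vessel markers 4 were lower at 3 ZT and 5 at 6 ZT, with medians of -0.02 and -0.04. At 3 ZT 9 of 10 lens markers were higher in light, with a median of 0.50. At 6 ZT all 10 lens markers were lower in light, with a median of -1.64 and a summed level of 14246 to 103919 against 101401 to 146190 in darkness, and 7 of 8 pigment epithelium and melanocyte markers were higher, with a median of 0.58. At 3 ZT 5 of these 8 were higher, with a median of 0.14. None of the measured photoreceptor, bipolar, lens or pigment markers was among the dimmest 25% of probe sets. At 3 ZT 4.59% of all probe sets had an unadjusted p under 0.05 by limma. Of the markers, 2 bipolar and 1 Muller glia were lower in light at that level, and 1 lens and 1 pigment were higher. At 6 ZT, against 8.53% of all, 4 lens markers were lower. There 5 pigment, 1 bipolar and 1 photoreceptor marker were higher. No marker passed the adjusted threshold in either comparison, and the part of these lists in the levels of the genes described was not tested.

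Beyond the genes described, 85 symbols in 5 lists of the same pathways were followed, of which 70 were on the array, each with its brightest probe set. None passed the adjusted threshold at either hour by limma. At an unadjusted p under 0.05 light against darkness gave 1 gene higher and 3 lower at 3 ZT, 5.71% of the 70 against 4.59% of all probe sets, and 5 higher and 4 lower at 6 ZT, 12.9% of them against 8.53% of all. The median log2 fold change of the 70 was -0.00 at 3 ZT and -0.09 at 6 ZT.

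Among 12 genes of catecholamine synthesis, storage and breakdown, 6 were lower in light at 3 ZT, 2 of them at an unadjusted p under 0.05, with a median of -0.01. At 6 ZT 9 of the 12 were lower, with a median of -0.07, and 2 lower and 1 higher had an unadjusted p under 0.05. Over all probe sets 4.59% at 3 ZT and 8.53% at 6 ZT had such a p by limma, and 49.7% and 51.9% were lower in light. Pnmt, which methylates noradrenaline to adrenaline, read 8.87, 9.18 and 9.29 in 3 ZT dark and 8.52, 8.17 and 9.04 in 3 ZT light, lower in every replica. Its log2 fold change was -0.54 ± 0.17 (SE, unadjusted p = 0.0083, adjusted p = 0.895), with its lowest value in 3 ZT light replica 2. Dbh, which makes noradrenaline from dopamine, differed by -0.24 ± 0.08 (unadjusted p = 0.0149). Gch1 makes the first step towards tetrahydrobiopterin, the cofactor of Th. It read 7.23, 8.28 and 8.0035 in 6 ZT dark and 8.44, 8.28 and 8.52 in 6 ZT light, a log2 fold change of 0.58 ± 0.18 (unadjusted p = 0.0100, adjusted p = 0.518), with replica 1 far apart and replica 2 at the same value in both.

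Of 34 genes of cyclic AMP signalling, 15 were higher and 19 lower in light at 3 ZT, with a median of -0.03. At 6 ZT 13 were higher and 21 lower, with a median of -0.08. By limma 1 higher and 1 lower had an unadjusted p under 0.05 at 3 ZT, against 4.59% of all probe sets. At 6 ZT 4 higher and 1 lower did, against 8.53% of all. Crem had the smallest p of this list at 3 ZT. Crem encodes a family of activators and repressors at cyclic AMP response elements, among them the inducible repressor ICER. It read 10.84, 11.29 and 11.19 in 3 ZT dark and 11.47, 11.68 and 11.67 in 3 ZT light. All light arrays lay above all dark ones, with a log2 fold change of 0.50 ± 0.14 (unadjusted p = 0.0054, adjusted p = 0.895). At 6 ZT it read 11.12, 10.62 and 10.93 in darkness and 11.19, 11.13 and 11.39 in light, again without overlap, a log2 fold change of 0.35 ± 0.14 (unadjusted p = 0.0349, adjusted p = 0.562). Pde1c, a calmodulin-dependent phosphodiesterase, and Adcy9, an adenylyl cyclase, were higher in light at 6 ZT by 0.32 ± 0.10 and 0.21 ± 0.07 (unadjusted p = 0.0111 and 0.0171) and stood at -0.09 and -0.06 at 3 ZT. Both were below the array medians, Pde1c between 6.82 and 7.84 and Adcy9 between 5.87 and 7.31.

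Further lists held other receptors and the melatonin pathway. Of 7 other adrenergic receptor genes, 6 were lower in light at 6 ZT and 3 at 3 ZT, with medians of -0.11 and 0.00. Over all probe sets 51.9% were lower in light at 6 ZT and 49.7% at 3 ZT. Against 0 ZT dark, all 7 were higher in 6 ZT dark, with a median of 0.06, and in 6 ZT light 3 were higher and 4 lower, with a median of -0.01. Over all probe sets 47.5% were lower in 6 ZT dark and 52.3% in 6 ZT light. Of the 7, 1 had an unadjusted p under 0.05 by limma in 6 ZT dark, against 8.73% of all. Between light and darkness at 6 ZT Adrb3, a beta receptor, differed by -0.25 ± 0.09 (unadjusted p = 0.0154). Adrb3 was dim, at 5.50, 6.02 and 5.80 in 6 ZT dark and 5.50, 5.58 and 5.48 in 6 ZT light. Array medians were 8.28 to 8.81, and its replica 1 held the same value in both conditions. Adra1a and Adrb1 gave -0.11 ± 0.06 and -0.25 ± 0.15 with unadjusted p of 0.0915 and 0.128. Both were below the array medians too, Adra1a between 6.46 and 7.04 and Adrb1 between 7.19 and 8.38. In all 3 dark conditions Adra1a held the same value in replica 2 (6.63) and in replica 3 (7.03). Among 11 genes of other dopamine receptors and their partners, 10 were lower in light at 6 ZT and 4 at 3 ZT, none at an unadjusted p under 0.05. Against 0 ZT dark, all 11 were higher in 6 ZT dark, with a median of 0.10, and 2 of them had an unadjusted p under 0.05 by limma, against 8.73% of all. In 6 ZT light 5 were higher and 6 lower, with a median of -0.02. Drd5, the other receptor of the D1 class, stood 0.44 ± 0.19 from 0 ZT dark in 6 ZT dark and 0.10 ± 0.19 in 6 ZT light. Light against darkness at 6 ZT gave -0.34 ± 0.19 for Drd5 and -0.17 ± 0.09 for Drd3. Caly, a partner of D1 receptors, gave -0.40 ± 0.24. Drd3 was dim, between 4.75 and 6.10 on the 15 arrays, and Drd5 lay between 5.93 and 7.32, also below the array medians. In the melatonin list, with 6 genes measured, Asmtl, named for its likeness to Asmt, was at -0.41 ± 0.19 at 3 ZT (unadjusted p = 0.0528). Its lowest value of the 15, 9.50, was in 3 ZT light replica 2, where Ywhaz had its lowest of 3 ZT too. Cyp1b1, a cytochrome that can hydroxylate melatonin, gave 0.22 ± 0.13 at 6 ZT, and Ywhaz, a 14-3-3 protein that binds phosphorylated Aanat, gave -0.15 ± 0.10 at 3 ZT, and none of the list reached an unadjusted p under 0.05 at either hour.

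How alike the profiles were was measured by Pearson's r over the 15 arrays, after the mean of each replica number had been taken out, and is given as a description. Among the genes described, Drd4 was most like Adra1b (r = 0.79), then Asmt (0.70) and Aanat (0.64), and Adra1b and Asmt had an r of 0.60. Th was most like Drd2 (r = 0.76), and Drd4 and Th gave -0.06. Compared with 14216 other genes, the profiles nearest to Drd2 were those of Hpcal4 (r = 0.96), Hap1 (0.96) and Esam (0.95). Nearest to Adra1b were Lrrc73 (0.94), Dnajb7 (0.89) and Slc35b4 (0.88), and nearest to Asmt were Clec10a (0.90), Trappc5 (0.90) and Ak4 (0.89). For Drd4 they were Lrguk (0.93), Sct, which encodes secretin (0.91), and Tmem108 (0.89). All of these values share the 15 arrays and their RNA, the 2 arrays with a large actin difference included.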

How the data were processed

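The authors hybridised total RNA of rat retinas to 15 Affymetrix rat genome arrays and deposited log2 values computed by Robust Multi-array Average (RMA), a procedure of background correction, quantile normalization and median polish. The software and its version were not given in the sources used here. The values were used as deposited. Their array medians depended on replica number, so the 15 arrays did not share a common level. Gene symbols came from the platform annotation (20832 probe sets with 1 symbol, 436 with several, 9831 with none), of which 20764 matched the rat gene table of RefSeq, and a probe set with several symbols was given no name. The genes described, the pathway lists and the marker lists were chosen with earlier results of these data known. In counts over lists a gene was represented by its brightest probe set. From each pathway list the 3 genes with the lowest unadjusted p in light against darkness at either hour were named. Of similar profiles the 3 nearest were named for the 4 genes with the widest range of condition means.

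Comparisons used limma 3.58.1 in R 4.3.3 (lmFit, contrasts.fit, eBayes) on all 15 arrays, with terms for condition and for replica number, and Benjamini-Hochberg adjustment over 31042 probe sets, after testing on simulated data. The replica number entered as a block because the methods form ratios within a replica. Deviations from the condition means correlated at 0.24 to 0.80 in 30 pairs of arrays with the same number and at -0.54 to 0.23 in 60 pairs with different numbers. Arrays of a number also shared exactly equal values for 3.58 to 14.1% of probe sets, against 0.0161 to 0.0902% between numbers, so that this closeness may be technical and does not show that animals were paired. The alternatives were no replicate block, quantile and cyclic loess normalization, leaving out dim probe sets, array weights, a variance trend, fitting only the conditions compared, leaving out arrays, the mean of all probe sets of a gene and other limits of the ratio rule. The precision is limited by the number of arrays.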

Additional observations from a re-analysis of the deposited data

How the results depend on the processing

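For the 8 genes by their brightest probe sets, 32 fold changes were recomputed under 24 alternatives each. Of the 768 values, 744 kept their direction and their side of the adjusted threshold, 2 passed it and 22 turned sign. Both that passed were those of Drd4 with array quality weights, at -0.28 for light against darkness at 6 ZT (adjusted p = 0.045) and -0.66 for 6 ZT light against 0 ZT dark (adjusted p = 0.0105), where 6 ZT light replica 3 had a weight of 7.45. Outside this count, a dimmer Drd4 probe set, 1394384_at, also passed with weights for 6 ZT light against 0 ZT dark, at -0.90 (adjusted p = 0.0445). Sign changes concerned small differences, and their cause was not tested. For light against darkness at 3 ZT, Ddc was -0.066 with weights, -0.11 without both arrays with the largest actin difference and -0.11 to 0.16 without single arrays, and Th was 0.14, 0.016 and -0.17 to 0.23. At 6 ZT, Asmt was 0.18 with weights and -0.26 to 0.036 without single arrays, Ddc -0.16 to 0.018 and Drd1 -0.071 to 0.34. For 3 ZT light against 0 ZT dark, Ddc was -0.042 without both arrays and -0.061 to 0.21 without single ones. For 6 ZT light against 0 ZT dark, Drd2 was -0.0055 with weights and -0.0092 to 0.19 without single arrays, Th -0.051 without both arrays and -0.054 to 0.29, Ddc 0.053 as the mean of its probe sets and -0.15 to 0.032, and Drd1 -0.064 to 0.34.

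Counts of probe sets past the adjusted threshold over the whole array were small and unstable. For light against darkness at 3 ZT the 1 became 0 with no replicate block, with quantile normalization and with only the conditions compared, and 0 to 1 without single arrays. At 6 ZT it was 2311 with array weights and 0 to 3 without single arrays. For 3 ZT light against 0 ZT dark it was 2 with weights, 0 with only the conditions compared and 0 to 2 without single arrays. For 6 ZT light it was 676 with weights, 3 without both arrays with the largest actin difference and 0 to 38 without single arrays, the 38 without 3 ZT light replicate 2. For 6 ZT dark it was 3 with weights and 0 to 1 without single arrays, and for any difference 191 with weights, 1 without dim probe sets and 0 to 4 without single arrays. The ratio rule gave 40 and 41 probe sets below 0.7 at 3 and 6 ZT with no replicate block, 57 and 38 at a limit of 0.75, and 15 at 3 ZT after quantile normalization.

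At an unadjusted p under 0.05 the 7 of the 12 probe sets at 3 ZT became 3 with no replicate block and 3 without 3 ZT light replicate 2. The probe set of Asmt alone was in both sets of 3, and Drd4 was in both by different probe sets. The 2 at 6 ZT became 0 with no replicate block and 0 without 6 ZT dark replicate 1 or 6 ZT light replicate 2. Adra1b kept its sign at both hours under all alternatives run, from -0.72 to -0.33 at 3 ZT and from -0.82 to -0.38 at 6 ZT, as did Drd4, from -0.90 to -0.33 and from -0.48 to -0.16. With 3 replicas per condition, small differences stayed within the 95% intervals.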
